A study of Mus musculus with 6 samples.

Results

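Malat1, Neat1, Meg3, Rian, Mirg, Snhg11 and Miat are long noncoding RNAs that were followed as a set of 7 genes, out of 34745 genes listed for the dorsal striatum of mice aged 1 year. They were chosen by gene name, and each name matched 1 row. RNA was sequenced from C57BL/6 mice in 3 libraries of Ash1l heterozygous animals (heterozygotes, Ash1l het in the plots) and 3 libraries of wild type (WT) animals. Ash1l encodes a histone methyltransferase. What kind of Ash1l mutation the heterozygotes carry is not given in the labels. Libraries are numbered within a genotype with no word on whether they are different animals, so a p-value here measures spread among libraries that may be technical.

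Long noncoding RNAs act as RNA and are not translated. Malat1 collects in nuclear speckles, where splicing factors are stored, and Neat1 is the scaffold of paraspeckles, another nuclear body. Meg3, Rian and Mirg are transcribed from the maternal chromosome in the imprinted Dlk1-Dio3 domain, and their transcripts hold small nucleolar RNAs (snoRNAs) and microRNAs. Miat, also called Gomafu, is a nuclear RNA of neurons that binds splicing factors, and Snhg11 is a snoRNA host gene found in neurons. The mature end of Malat1 is protected by a folded A-rich stretch in place of a poly(A) tail. How completely an mRNA kit captures such an RNA is unknown here, so its level in these libraries need not equal its level in the tissue.

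The libraries held 14421259 to 18798694 counts in heterozygotes and 12080663 to 17381781 in WT, and mitochondrially encoded genes took 15.9% to 18.8% of them. Ash1l itself stood at 281, 198 and 253 CPM (counts scaled to library size) in heterozygotes, against 308, 295 and 293 CPM in WT. All 3 heterozygote libraries lay below all WT libraries, at a log2 fold change of -0.29 (SE 0.13), which did not pass the edgeR quasi-likelihood test (adjusted p = 0.858). On the axis of largest variance (first principal component), heterozygote replicates 1 and 2 took scores of -28.1 and -28.5, against 12.4 for heterozygote replicate 3 and 4.2 to 23.8 for WT. All 12 spiny projection neuron markers were detected, with sums of 9760 to 11820 CPM in heterozygotes and 10730 to 11710 CPM in WT, while 8 cortical markers summed to 37.7 to 119 CPM in heterozygotes and 64.9 to 93.1 CPM in WT. The protocol names male mice, yet the female-typical noncoding RNA Xist stood at 2957, 2518 and 1964 CPM in heterozygotes and 2465, 2005 and 1956 CPM in WT.

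Malat1 and Neat1 lie next to each other on the minus strand of chromosome 19 (GRCm38). Malat1 (ENSMUSG00000092341) spans 5795690 to 5802672 and Neat1 (ENSMUSG00000092274) 5824708 to 5845478, with 22.0 kb between them. On the plus strand of chromosome 12, Meg3 (ENSMUSG00000021268) spans 109541001 to 109571726, Rian (ENSMUSG00000097451) 109603940 to 109661716 and Mirg (ENSMUSG00000097391) 109729764 to 109749460. Snhg11 (ENSMUSG00000044349) spans 158375638 to 158386145 on the plus strand of chromosome 2, and Miat (ENSMUSG00000097767) 112213228 to 112229395 on the minus strand of chromosome 5. GENCODE M21 gives the same start and end for all 7 and lists 4 to 20 transcripts for each. It classes Snhg11 as protein coding, Rian as a processed transcript and the other 5 as lincRNAs.

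The 3 genes of chromosome 12 were read for the small RNA genes within their spans. Snhg11, of chromosome 2, holds 2 snoRNA genes as well. Inside Meg3 the annotation places 2 microRNA genes, inside Rian 4 microRNA and 13 snoRNA genes, and inside Mirg 15 microRNA genes, of which 14 lie on the strand of the host. RefSeq (GRCm38.p6) lists 35 mature microRNAs within these spans, 3 in Meg3, 6 in Rian and 26 in Mirg. They have 34 distinct seeds, the bases 2 to 8 that pair with targets. The single shared seed, GGUUGCC, belongs to miR-453 and miR-496a-5p, both in Mirg. The sequences below lie within the spans of the host genes and are printed 5′ to 3′ with the seed in capitals. They are miR-770-5p from Meg3, miR-370-3p from Rian, and from Mirg miR-134-5p, miR-410-3p and the pair with the shared seed. Whether they fall in exons of the counted RNAs was not checked. The mature microRNAs themselves were not measured by these libraries.
miR-770-5p: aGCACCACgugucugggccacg
miR-370-3p: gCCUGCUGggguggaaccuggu
miR-134-5p: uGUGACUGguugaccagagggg
miR-410-3p: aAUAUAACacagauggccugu
miR-453: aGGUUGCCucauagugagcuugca
miR-496a-5p: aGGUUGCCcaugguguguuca

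**Figure D1:**
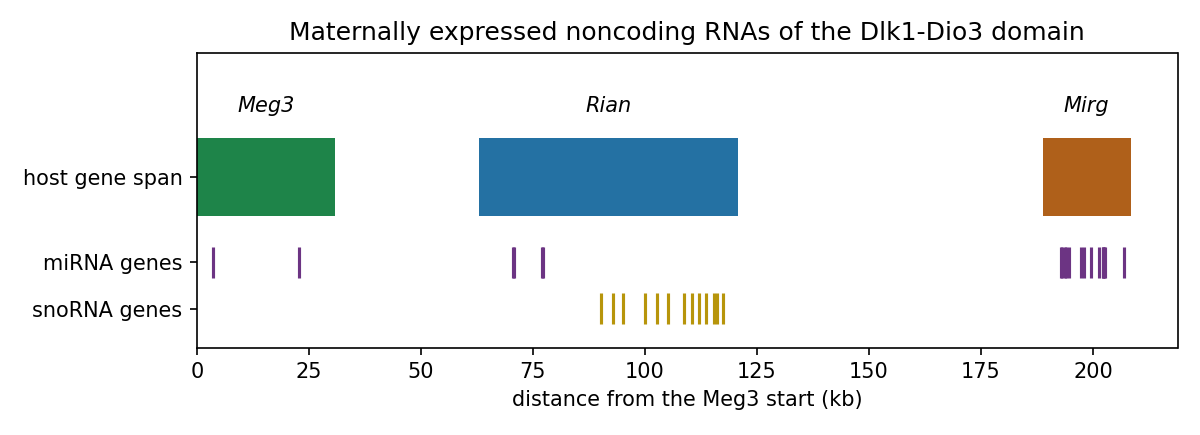
Spans of Meg3, Rian and Mirg along the chromosome, as distance in kb from the Meg3 start (horizontal axis), with vertical ticks for the annotated microRNA and snoRNA genes on the same strand inside each. Meg3 ends at 30.7 kb, Rian runs from 62.9 to 121 kb and holds the 13 snoRNA genes, and Mirg runs from 189 to 208 kb and holds 14 microRNA genes.

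Promoter windows from RefSeq (GRCm38.p6), 250 bases before to 50 after a start, matched 6 of the 7 genes. The windows of 3 genes are printed, that of Malat1 because it had the smallest p of the 7, that of Meg3 because it heads the imprinted unit, and that of Snhg11 because it had the highest level. They lie at chr19:5802623-5802922 (minus strand), chr12:109540746-109541045 (plus strand) and chr2:158375463-158375762 (plus strand). Capitals mark matches on either strand to the TATA box TATAAA, the CAAT box CCAAT, the GC box GGGCGG, the short cAMP response motif TGACG, its palindromic full form TGACGTCA (each match of which also holds the short form on both strands), or the E-box CACGTG.
Malat1: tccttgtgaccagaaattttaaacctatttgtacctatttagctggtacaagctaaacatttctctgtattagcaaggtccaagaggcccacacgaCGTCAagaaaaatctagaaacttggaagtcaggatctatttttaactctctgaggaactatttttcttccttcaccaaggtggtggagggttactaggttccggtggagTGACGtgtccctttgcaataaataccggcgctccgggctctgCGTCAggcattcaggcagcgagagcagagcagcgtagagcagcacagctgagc
Meg3: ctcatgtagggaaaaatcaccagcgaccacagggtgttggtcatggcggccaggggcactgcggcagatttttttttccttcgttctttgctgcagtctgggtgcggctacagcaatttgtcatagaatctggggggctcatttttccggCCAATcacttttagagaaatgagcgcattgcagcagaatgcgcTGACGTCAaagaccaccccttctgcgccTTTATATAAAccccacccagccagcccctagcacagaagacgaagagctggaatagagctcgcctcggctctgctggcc
Snhg11: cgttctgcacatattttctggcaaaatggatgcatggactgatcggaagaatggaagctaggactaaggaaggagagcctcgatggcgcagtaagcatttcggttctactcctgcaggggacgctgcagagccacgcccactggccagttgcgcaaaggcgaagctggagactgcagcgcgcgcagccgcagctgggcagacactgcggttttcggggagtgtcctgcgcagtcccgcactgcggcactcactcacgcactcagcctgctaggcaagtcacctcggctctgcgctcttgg

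The printed Meg3 window held TGACGTCA, the cAMP response element, at position -57 from the RefSeq start, a TATAAA at -25 on the sense strand that overlaps a match at -29 on the other, and a CCAAT at -100. RefSeq holds another Meg3 window, at chr12:109545148-109545447, with 0 matches to the 6 motifs and 1 CpG dinucleotide. Of 32851 windows of this length, 1.79% held TGACGTCA, 13.6% TATAAA and 37.4% CCAAT. The Malat1 window held the short motif TGACG at -154, -45 and -3, which 20.8% of windows held at least once. The Snhg11 window had no match to the 6 motifs, 1 of which, GGGCGG, was in 35.7% of windows and another, CACGTG, in 7.15%. CpG dinucleotides numbered 10 in the Malat1 window, 13 in the printed one of Meg3, 21 in that of Snhg11, 25 in that of Miat and 0 in that of Rian, where the median window had 7. These matches describe the letters of the windows and no binding was measured.

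Levels between genes were compared per length, as FPKM (fragments scaled to library size and gene length). The length behind the authors' FPKM was larger than the annotated exons of each gene laid together, by a factor of 1.19 for Neat1, 1.26 for Rian and Snhg11, 1.34 for Malat1, 1.41 for Meg3, 1.64 for Mirg and 1.96 for Miat. For Meg3, Mirg, Snhg11 and Miat that length equals the sum of all distinct annotated exons, in which overlapping exons count repeatedly. The same held for 67.5% of 15104 genes averaging 10 or more counts, within 0.5 base. FPKM was therefore also computed on the joined exon length, which was chosen after seeing the data, and the next values are on that scale.

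Snhg11 and Meg3 had the highest levels. Snhg11 stood at 257.9, 172.7 and 154.3 FPKM in the heterozygote libraries, against 218.4, 225.8 and 209.0 FPKM in WT. Meg3 stood at 165.2, 183.1 and 154.0 FPKM in heterozygotes, against 155.7, 157.7 and 155.3 FPKM in WT. Snhg11 lay above Meg3 in all 3 WT libraries, and the ranges of these genes overlapped in heterozygotes. Malat1 followed at 113.9, 129.7 and 90.75 FPKM in heterozygotes, against 78.59, 77.59 and 76.46 FPKM in WT, below every value of Meg3. Rian stood at 29.83, 30.37 and 27.06 FPKM in heterozygotes and 27.61, 27.59 and 26.55 FPKM in WT, apart from its neighbours in the order in both genotypes.

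The other 3 members had lower levels on this scale. For Neat1 the joined exon length was 20771 bases, its whole span, and reads of a shorter transcript would be divided by that length as well. Neat1 averaged 5.86 ± 2.05 FPKM in heterozygotes and 4.01 ± 1.88 FPKM in WT (SD, n = 3 each). Miat averaged 5.59 ± 0.119 FPKM in heterozygotes and 5.06 ± 0.417 FPKM in WT, with less spread. Mirg averaged 2.91 ± 0.283 FPKM in heterozygotes and 2.87 ± 0.384 FPKM in WT. The ranges of Neat1 and Miat overlapped in both genotypes, and so did those of Neat1 and Mirg in WT. In WT Miat had the higher mean on this scale, but on the authors' deposited FPKM Neat1 did, at 3.36 ± 1.57 FPKM in WT against 2.58 ± 0.213 FPKM in WT for Miat, so that order depends on the length used. By mean over the 6 libraries on the joined exon length, Meg3 ranked 1, Malat1 3, Rian 10, Miat 64, Neat1 75 and Mirg 142 among 2896 detected genes that GENCODE classes as long noncoding. Among all genes Snhg11 ranked 83, Meg3 110 and Malat1 246, whereas Mirg ranked 9047. The 7 genes took 0.538% to 0.672% of the counts in heterozygotes and 0.572% to 0.599% in WT.

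**Figure D2:**
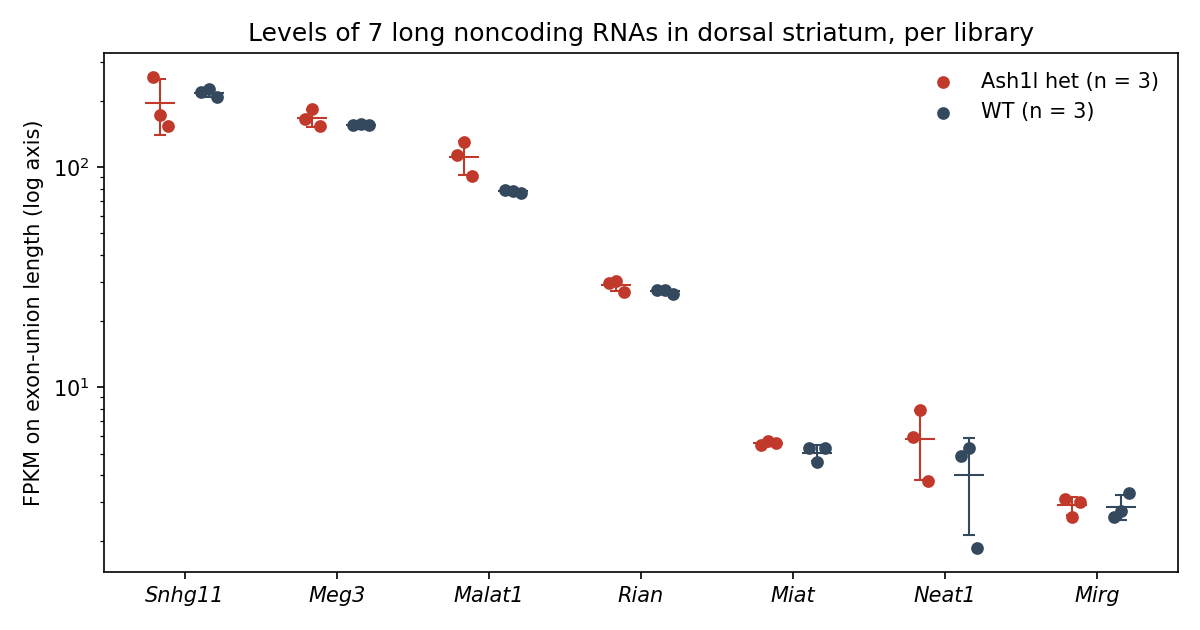
FPKM on joined exon length (vertical log axis) of the 7 genes in each library, with Ash1l het points in red and WT points in dark blue; horizontal marks are means and bars are SD, n = 3 each. Malat1 shows all 3 Ash1l het points above the WT points, and Neat1 shows the widest WT spread, with 1 library at 1.86 FPKM.

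Malat1 had higher values in heterozygotes, short of the test. Its normalised counts were 788, 851 and 655 CPM in heterozygotes, against 549, 563 and 537 CPM in WT. The groups did not overlap, and replicate 3 was the lowest of the heterozygote libraries. The mean was 765 ± 100 CPM in heterozygotes and 550 ± 13.0 CPM in WT (SD, n = 3 each), a log2 fold change of 0.48 (SE 0.12), or 1.39-fold with an unadjusted 95% interval of 1.15 to 1.68. The edgeR quasi-likelihood p was 0.00314 unadjusted, rank 60 of 15267 tested genes and rank 2 of 822 tested long noncoding genes, and 0.741 adjusted, with adjusted p-values of 0.117 to 0.999 over the alternatives. The exact two-sided permutation p was 0.1, which is the lowest possible with 3 against 3. With each library left out in turn the log2 fold change ran from 0.39 to 0.57. Without both of the heterozygote libraries that stood apart on the first principal component it was 0.25 (SE 0.08, edgeR adjusted p = 0.522), with the 1 remaining heterozygote library assumed to vary like WT.

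Of the 7 members, 0 passed the edgeR quasi-likelihood test at an adjusted p under 0.05, where 2 of 15267 genes (0.0131%) passed. By DESeq2 (0.255% of genes called) and by the exact test of edgeR (0.269% called) 0 members passed as well, with Malat1 nearest at adjusted p-values of 0.117 and 0.243. At an unadjusted p under 0.05 the quasi-likelihood test listed 1 member, Malat1, and 5.78% of all genes (3.10% higher in heterozygotes). The groups did not overlap for 2 of the 7 members, Malat1 and Miat, both higher in heterozygotes. Of all tested genes 6.18% were higher without overlap and 5.53% were lower without overlap. Among the 822 tested long noncoding genes, 435 were higher and 386 lower by sign. Of them 34 had an unadjusted p under 0.05 and 0 passed the quasi-likelihood test. In 34 of the 822 the groups did not overlap with heterozygotes higher, and in 42 with heterozygotes lower.

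**Figure D3:**
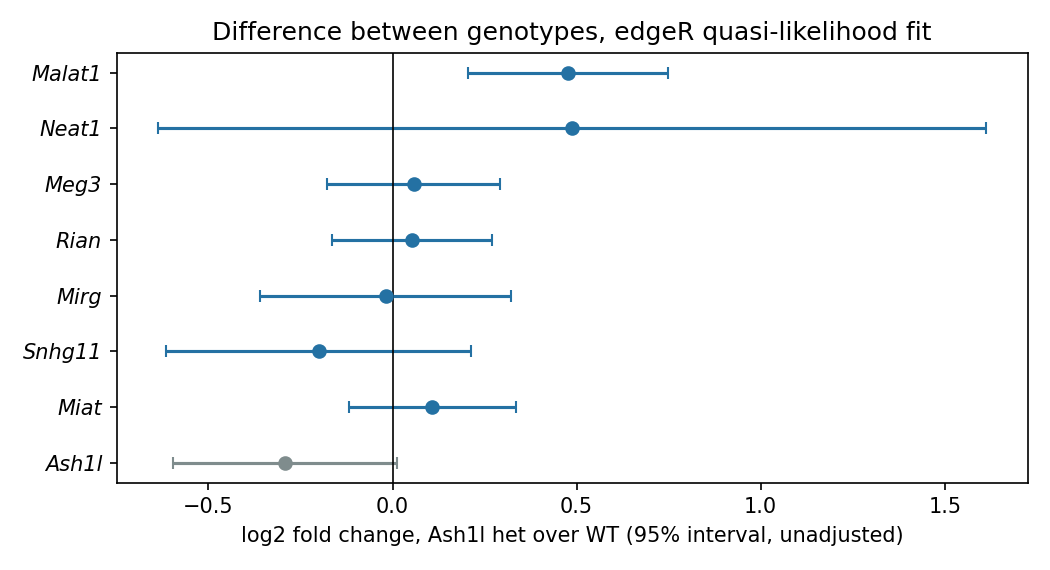
Log2 fold change of Ash1l het over WT (horizontal axis) for the 7 genes and for Ash1l, with unadjusted 95% intervals from the edgeR quasi-likelihood fit on 3 libraries per genotype. The Malat1 interval, 0.21 to 0.75, lies above 0, the intervals of the other 6 include 0, and that of Neat1 is the widest, at -0.64 to 1.61.

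Neat1, the neighbour of Malat1, varied most among the members. It stood at 122, 154 and 80.7 CPM in heterozygotes, against 101, 115 and 38.8 CPM in WT. The groups overlapped, and WT replicate 3 was by far the lowest library. The log2 fold change was 0.49 (SE 0.45, quasi-likelihood adjusted p by edgeR = 0.910), and 0.14 (SE 0.25) without WT replicate 3. Without heterozygote replicates 1 and 2 it was -0.07 (SE 0.88). Neat1 has a short and a long transcript that share their start, and counts per gene do not separate them. Frmd8, a coding neighbour 4.22 kb from Neat1, overlapped between the groups, at 21.1 ± 8.35 CPM in heterozygotes and 20.1 ± 2.42 CPM in WT (SD, n = 3 each).

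Meg3 and Rian were the steadiest. Meg3 stood at 2961, 3112 and 2878 CPM in heterozygotes, against 2816, 2964 and 2826 CPM in WT. Rian stood at 539, 520 and 510 CPM in heterozygotes, against 504, 523 and 487 CPM in WT. For both genes the groups overlapped and the libraries lay within a narrow band. The log2 fold changes were 0.06 (SE 0.10) for Meg3 and 0.05 (SE 0.10) for Rian, each with an edgeR adjusted p of 0.951. The unadjusted 95% intervals, 0.884- to 1.22-fold for Meg3 and 0.892- to 1.21-fold for Rian, show how large a difference these libraries leave possible. Counts of Rian share their strand with the lincRNA model Gm26945, which lies inside it and stood at 10.2 ± 3.82 CPM in heterozygotes and 8.68 ± 0.607 CPM in WT (SD, n = 3 each).

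Mirg, the microRNA host, stood at 22.5, 17.7 and 22.8 CPM in heterozygotes, against 18.8, 20.7 and 24.3 CPM in WT. The groups overlapped, with the lowest value in heterozygote replicate 2 and the highest in WT replicate 3. The log2 fold change was -0.02 (SE 0.15, quasi-likelihood adjusted p by edgeR = 0.988), and its sign turned with the library left out, from -0.10 to 0.09. Mirg rested on 227 to 419 reads per library, against 34018 to 52351 for Meg3.

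Snhg11 and Miat are the members outside both clusters. Snhg11 stood at 2177, 1383 and 1359 CPM in heterozygotes, against 1861, 1999 and 1791 CPM in WT. Heterozygote replicate 1 lay above every WT library, and heterozygote replicates 2 and 3 lay below every one. The log2 fold change was -0.20 (SE 0.18, quasi-likelihood adjusted p by edgeR = 0.908), and -0.46 (SE 0.11, edgeR adjusted p = 0.734) without heterozygote replicate 1. Without heterozygote replicates 1 and 2 it was -0.47 (SE 0.09, edgeR adjusted p = 0.115), and without heterozygote replicate 3 it was -0.08. Miat stood at 50.4, 49.8 and 53.8 CPM in heterozygotes, against 49.1, 44.2 and 49.6 CPM in WT. The groups did not overlap, though the nearest libraries, at 49.8 and 49.6 CPM, were close, and the log2 fold change was 0.11 (SE 0.10, quasi-likelihood adjusted p by edgeR = 0.910).

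**Figure D4:**
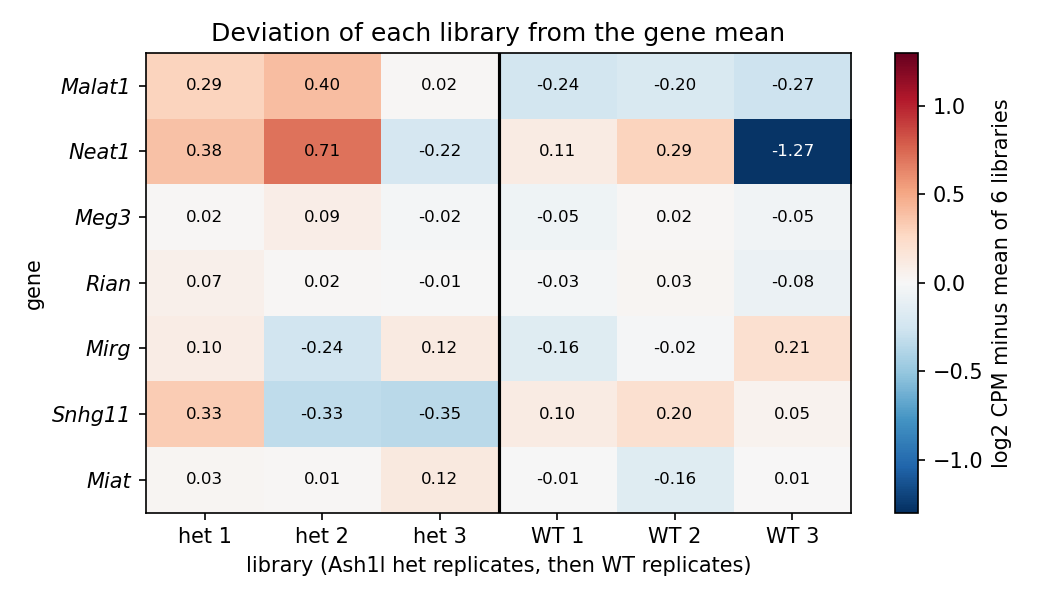
Deviation of each library (columns, Ash1l het left of the line and WT right) from the gene's mean over 6 libraries, in log2 CPM (colour and printed value), for the 7 genes (rows). Malat1 is at 0.02 to 0.40 in Ash1l het and at -0.27 to -0.20 in WT, Snhg11 splits Ash1l het replicate 1 from replicates 2 and 3, and WT replicate 3 is at -1.27 for Neat1.

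Likeness between genes was measured as the root mean square difference of their mean-centred log2 CPM over the same 6 libraries, where a smaller value means a closer pattern. Meg3 and Rian differed by 0.0395, and 36 of 9551 other genes with a mean of at least 10 CPM were closer to Meg3 than Rian was. Both patterns are nearly flat, with own spreads of 0.0495 and 0.0459, so many steady genes come near them. Mirg, of the same domain, differed from Meg3 by 0.19 and from Rian by 0.176. Malat1 and Neat1 differed by 0.504, although they are neighbours, and 8918 of 9551 genes were closer to Malat1 than Neat1 was. From the side of Neat1, whose own spread is far wider, 181 of 9551 genes were closer than Malat1. The genes nearest to Malat1 were Pdcl3 (0.0447), Ctps2 (0.0519) and Grb14 (0.0526), against its own spread of 0.26. Those nearest to Neat1 were Sbsn (0.202), Gxylt1 (0.268) and Bzw1 (0.279), against 0.633, and those nearest to Snhg11 were Car10 (0.0847), Txnl4a (0.0875) and Ttc28 (0.0908), against 0.256. The nearest genes were Sec62, Tkt and Rab3gap1 for Meg3, Gprasp1, Tcp1 and Hdgfrp3 for Rian, Ccdc43, Cirh1a and Prdm16 for Mirg, and those for Miat included Mlx and Eif2ak3.

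Genes of the nuclear bodies were read beside Malat1 and Neat1. Of 31 tested speckle and splicing factor genes, 27 were higher and 4 lower in heterozygotes by sign, with a median log2 fold change of 0.18, where all tested genes had a median of 0.01. In 9 of the 31 the groups did not overlap with heterozygotes higher and in 1 with heterozygotes lower, where 6.18% and 5.53% of all tested genes did so. Of the 31, 0 passed the edgeR quasi-likelihood test (unadjusted p under 0.05 for 4; 0.0131% of all genes passed). The speckle list summed to 4744 to 5154 CPM in heterozygotes and 4425 to 4609 CPM in WT. The splicing factor gene Luc7l2 stood at 180 ± 8.80 CPM in heterozygotes and 144 ± 5.50 CPM in WT (a log2 difference of 0.32, SE 0.10), and Srsf5 at 146 ± 16.5 CPM in heterozygotes and 120 ± 2.26 CPM in WT (SD, n = 3 each). The splicing factor Srsf10 and the kinase Clk4, which phosphorylates such factors, differed by 0.21 (SE 0.09) and 0.23 (SE 0.10) on the log2 scale. Of 22 paraspeckle protein genes 13 were higher and 9 lower by sign, at a median of 0.03, and 0 passed (3 at an unadjusted p under 0.05). In 4 of the 22 the groups did not overlap with heterozygotes higher, and in 3 with heterozygotes lower. Among them Hnrnpa1, which encodes an RNA-binding protein, stood at 61.3 ± 5.32 CPM in heterozygotes and 49.5 ± 5.83 CPM in WT (SD, n = 3 each).

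Genes around Meg3, Rian and Mirg were read next. Of 16 tested genes in and beside the Dlk1-Dio3 domain 6 were higher and 10 lower by sign, at a median log2 fold change of -0.06. Of the 16, 0 passed the edgeR quasi-likelihood test (0 at an unadjusted p under 0.05). The tested genes nearest to Meg3 were Dlk1, 77.7 kb before it, and Rtl1, 17.5 kb after it. After Mirg the nearest tested gene was Ppp2r5c, at 698 kb, so genes beside the domain can lie far from it. Dlk1, a paternally expressed ligand-like protein, stood at 12.7, 4.89 and 1.87 CPM in heterozygotes, against 2.07, 4.07 and 2.26 CPM in WT. Its groups overlapped, and heterozygote replicate 1 was by far the highest library. Rtl1, read from the opposite strand between Meg3 and Rian, averaged 0.805 ± 0.430 CPM in heterozygotes and 1.01 ± 0.206 CPM in WT (SD, n = 3 each). Cyp46a1, the brain cholesterol hydroxylase, was not a nearest tested neighbour of Meg3, Rian or Mirg. It averaged 177 ± 24.6 CPM in heterozygotes and 218 ± 21.7 CPM in WT, with groups that did not overlap. Of 30 other imprinted genes 19 were higher and 11 lower by sign, at a median of 0.04, and 0 passed (1 at an unadjusted p under 0.05, Zim1, at 5.98 ± 0.246 CPM in heterozygotes and 4.21 ± 0.139 CPM in WT).

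Other noncoding RNAs and the microRNA and snoRNA pathways gave no call either. Of 22 other long noncoding RNAs 14 were higher and 8 lower by sign, at a median log2 fold change of 0.11. In 1 of the 22 the groups did not overlap with heterozygotes higher, and in 5 with heterozygotes lower. Of all tested genes 6.18% and 5.53% did so. Six3os1, the noncoding neighbour of the homeobox gene Six3, had the smallest p of the 22. It stood at 13.2, 18.1 and 20.5 CPM in heterozygotes, against 28.0, 23.8 and 28.6 CPM in WT, with groups that did not overlap (log2 fold change -0.63, SE 0.17, edgeR adjusted p = 0.741). Of 13 snoRNA host genes besides Snhg11, 11 were higher and 2 lower by sign, at a median of 0.28. Some had low levels, and Snhg8, with the smallest p of the 13, averaged 2.71 ± 1.49 CPM in heterozygotes and 1.35 ± 0.373 CPM in WT. The sums of this list overlapped, at 159.5 to 204.9 CPM in heterozygotes and 151 to 162.7 CPM in WT. Snhg11 itself was at -0.20 (SE 0.18), with groups that overlapped, so its sign is not settled. Gas5 stood at 42.1 ± 7.95 CPM in heterozygotes and 34.7 ± 1.12 CPM in WT, and Snhg17, 14.1 kb from Snhg11, at 11.3 ± 1.78 CPM in heterozygotes and 8.98 ± 1.65 CPM in WT (SD, n = 3 each). Of 20 genes that process or use microRNAs and snoRNAs, 11 were higher and 9 lower by sign, at a median of 0.03. In these 3 lists 0 genes were called by the edgeR quasi-likelihood test, while 1, 1 and 0 had an unadjusted p under 0.05.

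Blood and endothelial marker genes were higher by sign in the group where Malat1 was. All 5 blood cell genes were higher in heterozygotes by sign, with sums of 56.1 to 123 CPM in heterozygotes and 23.0 to 35.4 CPM in WT. All 10 endothelial genes were higher by sign, with sums of 316 to 400 CPM in heterozygotes and 254 to 306 CPM in WT. No marker of either list was at 0. The groups did not overlap, with heterozygotes higher, for all 5 blood cell genes and for 3 of the 10 endothelial genes. Of all tested genes 6.18% were higher without overlap. Vwf, with the smallest p of the 10, held 41.8, 43.2 and 58.3 CPM in heterozygotes where WT held 20.2, 20.3 and 21.1 CPM. It fell short of the edgeR quasi-likelihood test (adjusted p = 0.0715). The nearest sums, 316 CPM (heterozygote replicate 2) and 306 CPM (WT replicate 2), lay closer than the Vwf values of those libraries. The separation of the endothelial sums thus depended on Vwf. Sums of neuron, oligodendrocyte, astrocyte and microglia markers overlapped between the groups, as did those of the spiny neuron markers. By sign 9 of 12 spiny neuron markers were lower and 2 higher, at a median log2 fold change of -0.17. An unadjusted quasi-likelihood p under 0.05 was found for 3 of the 12, against 5.78% of all tested genes. Of these 3, Bcl11b and Adora2a were lower in heterozygotes. Tac1, with the smallest p, was higher, at 208 ± 16.2 CPM in heterozygotes and 155 ± 7.30 CPM in WT (SD, n = 3 each). Of 10 astrocyte markers 4 were higher and 6 lower by sign, at a median log2 fold change of -0.03. One of the 4, Gfap, an intermediate filament raised in reactive astrocytes, stood at 412, 733 and 104 CPM in heterozygotes. In WT Gfap stood at 154, 62.0 and 83.7 CPM. Gfap was highest in heterozygote replicates 1 and 2, as Malat1 was, though its groups overlapped (log2 fold change 2.06, SE 0.81, adjusted p by edgeR = 0.858). The part of the blood, endothelial, astrocyte, spiny neuron and speckle genes in the Malat1 values was not tested. In these tissue samples fewer cells of a type and less RNA per cell cannot be told apart.

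**Figure D5:**
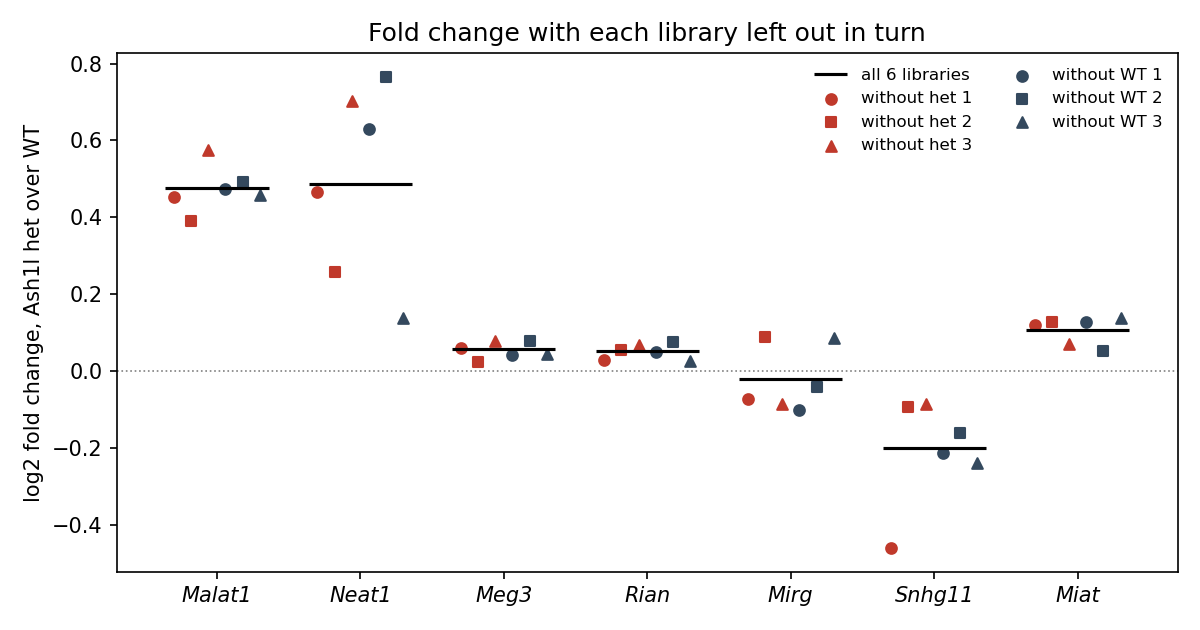
Log2 fold change of Ash1l het over WT (vertical axis) for the 7 genes with all 6 libraries (black lines) and with each library left out in turn (red symbols for Ash1l het libraries, dark blue for WT). Malat1 stays between 0.39 and 0.57, Neat1 drops to 0.14 without WT replicate 3, and Snhg11 reaches -0.46 without Ash1l het replicate 1.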

How the data were processed

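Per the labels' protocols, TRIzol RNA went into a stranded mRNA kit. GRCm38, HISAT2, StringTie, edgeR, CASAVA and FastQC appear in the submitters' processing notes, without roles or versions. Whether counting used strand is not stated there, so overlapping genes are uncertain. The deposited table holds raw counts per gene and the authors' FPKM; all 6 per-sample files repeat its counts. The 7 members and the gene lists were chosen with earlier results of these data known.

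Counts were tested with edgeR 4.0.16 in R 4.3.3 (TMM scaling, default filter with minimum count 10, robust quasi-likelihood test, genotype as the single term, Benjamini-Hochberg adjustment over 15267 genes, threshold 0.05). All 7 members passed the filter. SE is the fitted log2 fold change over the root of its F statistic. CPM are on the TMM scale. Steps were tested on simulated counts. Alternatives used DESeq2 1.42.0, limma 3.58.1, the edgeR exact test, other scalings, filters, FPKM pseudocounts of 0.1 and 1, a replicate block and left-out libraries. Genes named are the members, Ash1l, Xist, their nearest tested neighbours, up to 4 genes per list by smallest p, and the 3 nearest in pattern; a few genes under this rule are not reported here.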

Additional observations from a re-analysis of the deposited data

How the results depend on the processing

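By all 20 alternatives 0 of the 7 members passed, with the smallest adjusted p at 0.115, for Snhg11 without both heterozygote replicates 1 and 2. The number of genes called over the whole table was 2, against 39 by DESeq2, 41 by the exact test of edgeR, 1 to 13 with single libraries left out and 50 without both heterozygote replicates 1 and 2, an alternative added after seeing the data that leaves 1 heterozygote library. The cause was not tested. The sign of Mirg turned to 0.02 on log2(FPKM + 0.1) and to 0.013 on log2(FPKM + 1) with and without a filter, ran from -0.10 to 0.088 with single libraries left out, and was 0.10 without both heterozygote replicates 1 and 2, where Neat1 was at -0.069. With the replicate number as a block 3 genes passed, and Neat1 stood at 0.58 (SE 0.16, edgeR adjusted p = 0.900); the labels do not say that equal numbers pair libraries, and correlations of the deviations of same-numbered libraries were 0.06, -0.08 and 0.01. Mirg, at 227 to 419 reads per library, has the least depth behind its values.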
